A study of Solanum lycopersicum with 9 samples.

Results

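Xyloglucan endotransglucosylase/hydrolases (XTHs) were followed in imbibed tomato (Solanum lycopersicum) seeds, as the 36 genes of 40229 in the deposited expression table whose description contains "xyloglucan endotransglucosylase" or "xyloglucan endotransglycosylase". The study sequenced total RNA from seeds after 6 h of imbibition, the water uptake that starts germination. There were 9 libraries, with 3 from wild type (WT), 3 from a line labelled SlLBD40 knockout and 3 from a line labelled SlWRKY37 knockout. The proteins are plant transcription factors, SlLBD40 of the LOB domain family and SlWRKY37 of the WRKY family. The comparisons ask how the expression profile of imbibed seeds differs when either factor is knocked out. The labels give neither the cultivar, the type of mutation nor the number of independent lines, and they do not say whether replicates came from separate seed lots, so p-values measure the spread between these libraries, which may be technical.

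Xyloglucan is the main hemicellulose of the primary wall in tomato and most other flowering plants, where its chains coat and tether cellulose microfibrils. XTH enzymes cut a xyloglucan chain and either join the cut end to another chain, which lets the wall be rearranged as it expands, or to water, which shortens the chain. In seeds, wall loosening takes place in the embryo, whose cells elongate, and in the endosperm cap, the tissue that encloses the root tip and weakens before the root emerges. No feature of the data separates embryo from endosperm, and in whole seeds fewer cells of a type and less RNA per cell cannot be told apart.

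Values are expression values per gene taken as FPKM, a unit scaled to transcript length and to library size, given as mean ± SD (n = 3) or for replicates 1, 2 and 3 in turn. Differences are on the log2(value + 1) scale from a limma fit over all tested genes, which understates the change of low genes, and "called" means an adjusted p below 0.05. Genes numbered in their description are written as XTH1, XTH3 and so on. The others are named by chromosome, with a copy number that follows the order of the table and is not an official name. The gene whose description reads xyloglucan endotransglycosylase is written as XET on chromosome 9.

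Library totals ranged from 856291 to 918103, with 23206 to 24507 genes above 0 in each. Since the table holds no read counts, sequencing depth is unknown and counting error cannot be stated. Transcripts of the drying seed were present in every library. Those of late embryogenesis abundant proteins, dehydrins and oil body proteins took a smaller share of the total in all 6 knockout libraries than in WT. Storage protein transcripts did so except in SlWRKY37 knockout replicate 3, which stood at 1.11% against 0.935 to 1.12% in WT. The 65 genes described as late embryogenesis abundant (LEA) proteins or dehydrins, of which 11 were listed at 0 throughout, took 5.76 to 7.18% in WT, 2.03 to 2.57% in the SlLBD40 knockout and 2.22 to 3.37% in the SlWRKY37 knockout. The gene described as LOB domain-containing protein 40, on chromosome 5, stood at 12.6 ± 7.44 in WT and 40.9 ± 4.24 in the SlLBD40 knockout. The gene described as WRKY transcription factor 37, on chromosome 1, stood at 0.633 ± 0.325 in WT and 0.0767 ± 0.133 in the SlWRKY37 knockout. Whether these are the edited genes was not settled, and the RNA of an edited gene need not fall, so the groups are named here as they are labelled.

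The 36 XTH genes lay on 11 chromosomes. Chromosome 7 held 7 of them, and chromosomes 3 and 12 held 6 each. The low-value filter, an average of 1 or more across the 9 libraries, was passed by 19 genes, which were tested. These included all 6 on chromosome 3 but only 2 of the 6 on chromosome 12. Of the other 17, 13 were above 0 in at least 1 library, with no value above 1.75, which XTH2 reached in SlWRKY37 knockout replicate 3, and 4 were listed at 0 in all 9 libraries. XTH6 and the chromosome 3 gene copy 1 had WT means below 1 and passed this filter through the knockout libraries, so that counts over the 19 tested genes describe those genes and not the family.

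In WT seeds the XTH transcripts were dominated by the chromosome 7 gene copy 3, which alone made up 32.1 ± 4.19% of the summed XTH value. XTH3 followed with 14.0 ± 0.686%. In the SlLBD40 knockout XTH3 led with 20.6 ± 0.729% and the chromosome 7 gene copy 3 stood at 6.31 ± 0.61%. In the SlWRKY37 knockout copy 3 was first with 19.9 ± 5.01%, and XTH4 was second with 18.4 ± 3.79%, a pair whose shares did not differ beyond their spread. The summed value itself was 578, 872 and 615 in the WT libraries, 1303, 1293 and 1361 in the SlLBD40 knockout, and 781, 654 and 516 in the SlWRKY37 knockout. All 3 SlLBD40 knockout libraries lay above all others, and the SlWRKY37 knockout libraries overlapped WT. As a share of the library total this was 0.0764 ± 0.017% in WT, 0.149 ± 0.00364% in the SlLBD40 knockout and 0.0731 ± 0.0144% in the SlWRKY37 knockout. Without XTH3, the gene of highest mean, the same shares were 0.0657, 0.118 and 0.0643%.

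**Figure D1:**
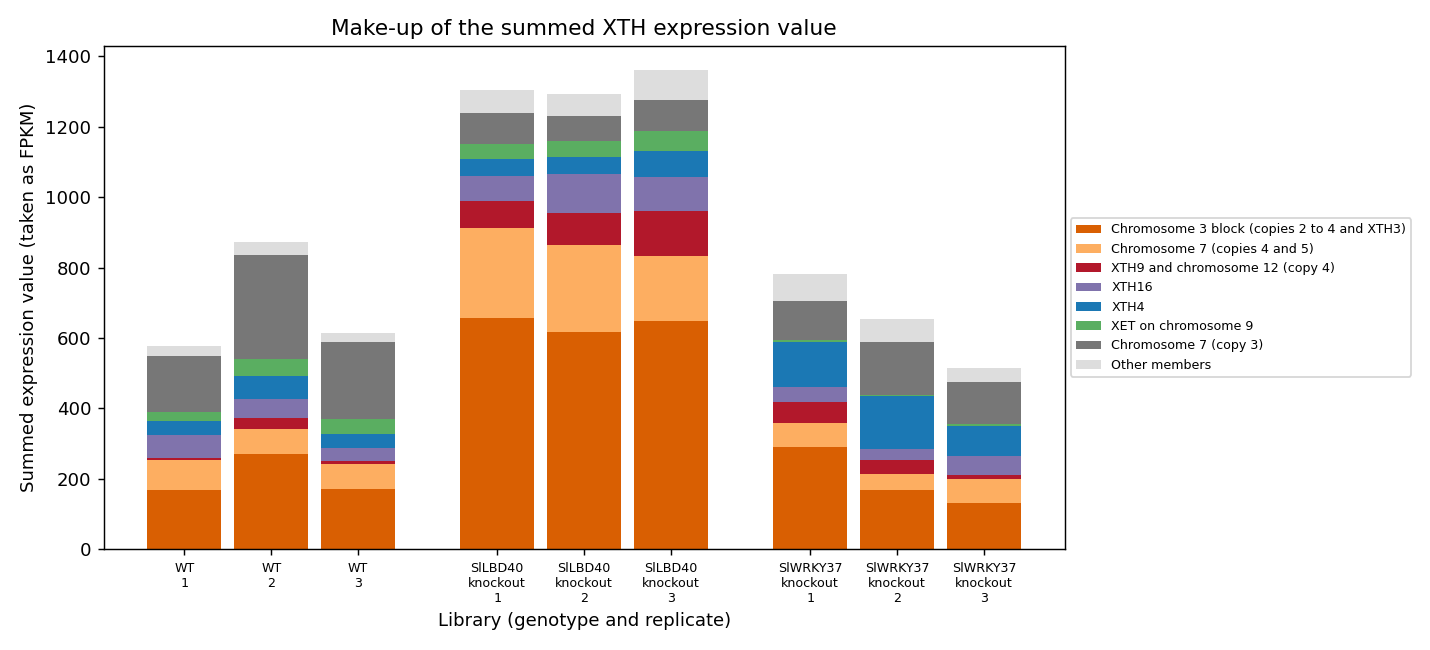
Stacked bars give the summed XTH expression value (taken as FPKM) in each of the 9 libraries, split by gene or gene group. The SlLBD40 knockout bars reach 1293 to 1361, and the chromosome 3 block makes up 48.5% of them on average against 29.4% in WT, while the XTH4 segment is widest in the SlWRKY37 knockout.

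Most tested XTH genes were more abundant in seeds of the SlLBD40 knockout than in WT. Of 19 tested genes 14 rose, 2 fell and 3 were not called. The 14 include XTH6, which passed the low-value filter only through the SlLBD40 knockout itself. Among all 18346 tested genes 37.2% were called in this comparison, 18.0% higher and 19.2% lower, against 84.2% of the tested XTH genes. The SlLBD40 knockout and WT libraries did not overlap in 16 of the 19 XTH genes and in 56.8% of all tested genes. The median log2 difference was 1.57 over the XTH genes, which is the difference of XTH6 itself, and -0.02 over all tested genes. Single XTH genes ranged from -1.37 to 3.12. Beside this count, the share of LEA and dehydrin transcripts given above was lower in every SlLBD40 knockout library than in any WT library, the share of oil body proteins (24 genes, 9 of them listed at 0) was 0.376 to 0.464% against 0.825 to 1.08%, and that of storage proteins (67 genes, 28 listed at 0) was 0.3 to 0.358% against 0.935 to 1.12%. The part of these shifts in the XTH count was not tested.

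**Figure D2:**
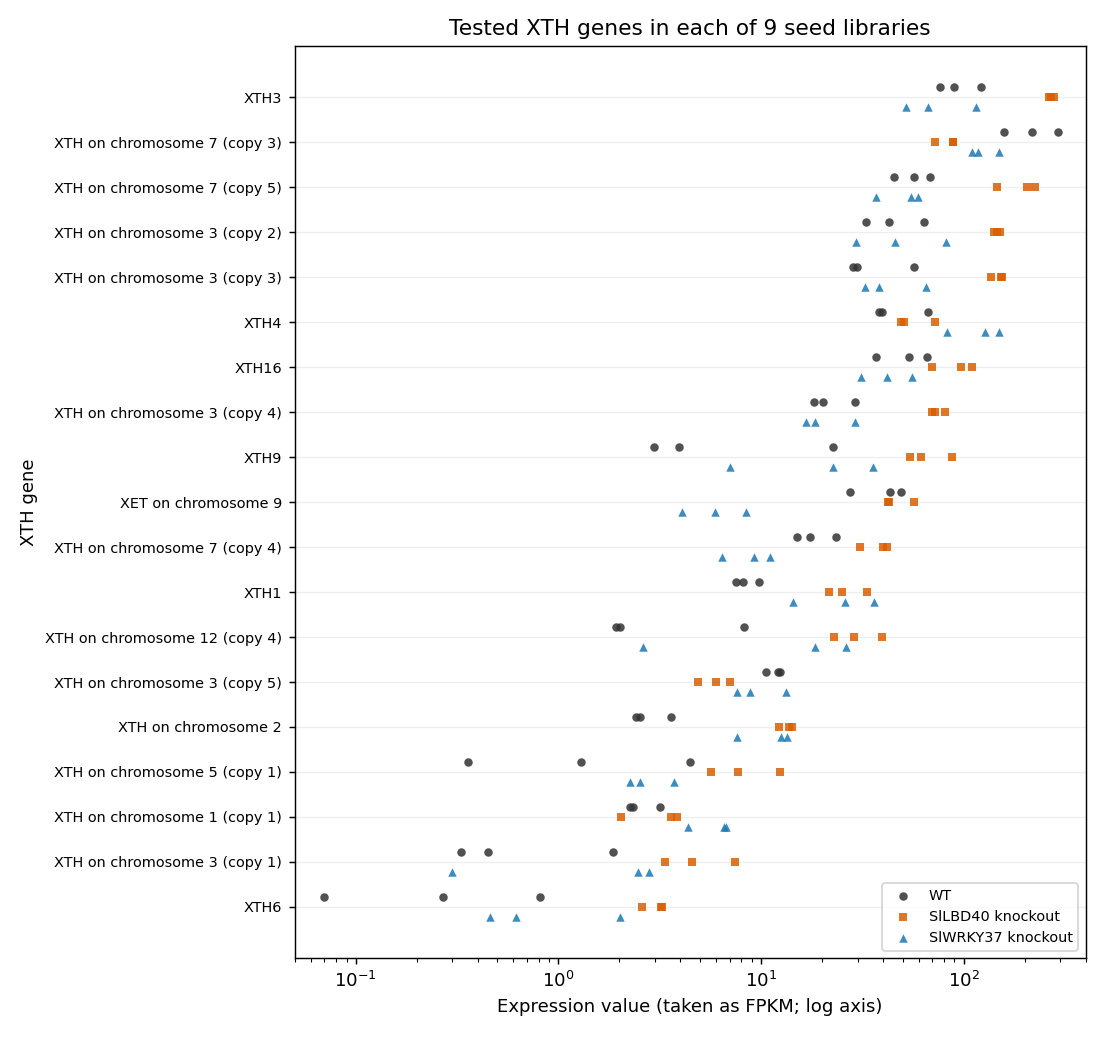
Each point is the expression value (taken as FPKM, log axis) of 1 XTH gene in 1 library, for the 19 tested genes in order of their mean, with symbols for WT, SlLBD40 knockout and SlWRKY37 knockout. For XTH3 the SlLBD40 knockout points lie at 264.31 to 278.56, to the right of the other 6 libraries, and for the XET on chromosome 9 the SlWRKY37 knockout points lie at 4.08 to 8.42, to the left of the other 6.

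A block of XTH genes on chromosome 3 accounted for the largest part of the additional transcript in the SlLBD40 knockout. XTH3 and the chromosome 3 genes copies 2, 3 and 4 occupy 4 consecutive rows of the table, and copies 2 to 4 were annotated from the same database entry. Reads of such similar copies may have been divided between them, which makes the level of each single copy uncertain. Summed over the 4 genes, the value was 169, 272 and 171 in WT, 656, 616 and 647 in the SlLBD40 knockout and 291, 170 and 131 in the SlWRKY37 knockout. The SlLBD40 knockout stood clear of both other groups, which overlapped each other.

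Within this block, XTH3 had values of 76.75, 121.87 and 90.18 in WT, 278.56, 264.31 and 271.44 in the SlLBD40 knockout and 115.17, 66.94 and 52.14 in the SlWRKY37 knockout. It rose by 1.51 ± 0.256 (SE, log2; adjusted p = 0.00203) in the SlLBD40 knockout, and its SlWRKY37 knockout values straddled those of WT (-0.35, adjusted p = 0.433). Copy 2 stood at 43.02, 63.59 and 32.91 in WT, at 141.18, 145.76 and 151.15 in the SlLBD40 knockout and at 82.17, 46.1 and 29.29 in the SlWRKY37 knockout. In it too the SlLBD40 knockout was apart from the rest, 3.14-fold above the WT mean (1.68 ± 0.326, adjusted p = 0.00384). Copy 3, at 28.61, 57.11 and 29.91 in WT, reached 155.23, 136.41 and 152.77 in the SlLBD40 knockout and 64.91, 38.09 and 32.72 in the SlWRKY37 knockout. Its SlLBD40 knockout mean was 3.84-fold the WT mean (1.99 ± 0.285, adjusted p = 0.000981). Copy 4 had the lowest level of the block, with 20.18, 29 and 18.35 in WT, 81.07, 70.01 and 72.12 in the SlLBD40 knockout and 29.23, 18.47 and 16.73 in the SlWRKY37 knockout. It showed the same separation of the SlLBD40 knockout from both other groups (1.71 ± 0.216 over WT, adjusted p = 0.000609). In the direct comparison of the knockouts the 4 genes were higher in the SlLBD40 knockout by 1.58 to 1.86 on the log2 scale (adjusted p from 0.000652 to 0.00786).

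The remaining chromosome 3 genes did not share 1 direction. Copy 5 had 10.57, 12.43 and 12.11 in WT, 5.98, 4.9 and 7.01 in the SlLBD40 knockout and 8.84, 13.33 and 7.63 in the SlWRKY37 knockout. It fell in the SlLBD40 knockout (-0.88 ± 0.2, adjusted p = 0.00821), with no overlap with WT, while the SlWRKY37 knockout overlapped WT. Copy 1 was scarce, with 0.45, 1.87 and 0.33 in WT, 4.57, 3.37 and 7.42 in the SlLBD40 knockout and 2.8, 2.47 and 0.3 in the SlWRKY37 knockout. It rose in the SlLBD40 knockout (1.74 ± 0.452, adjusted p = 0.0144), a call that was lost when WT replicate 1, WT replicate 3 or SlLBD40 knockout replicate 3 was left out (largest adjusted p = 0.0516).

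On chromosome 7 the 4 tested genes moved apart. Copy 3, the most abundant XTH transcript of WT seeds, had 158.25, 292.85 and 217.63 in WT, 88.61, 72.71 and 88.39 in the SlLBD40 knockout and 110.33, 149.44 and 117.49 in the SlWRKY37 knockout. Every library of either knockout lay below every WT library, and the same WT libraries serve both comparisons. The fall was 2.68-fold in the SlLBD40 knockout (-1.37 ± 0.206, adjusted p = 0.0012) and 1.77-fold in the SlWRKY37 knockout (-0.79 ± 0.206, adjusted p = 0.0399). The second of these calls was lost without WT replicate 2 or 3, any of the SlLBD40 knockout libraries, or SlWRKY37 knockout replicate 1 or 3, with an adjusted p of at most 0.123. The knockouts were not called as different from each other (-0.58, 95% interval -1.04 to -0.12, adjusted p = 0.0605).

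Copies 4 and 5, which are consecutive rows of the table, were both higher in the SlLBD40 knockout. Copy 5 had 68.55, 45.61 and 56.98 in WT, 225.27, 205.12 and 146.13 in the SlLBD40 knockout and 54.78, 37.11 and 59.93 in the SlWRKY37 knockout. The SlLBD40 knockout was 3.37-fold above the WT mean with no overlap (1.73 ± 0.221, adjusted p = 0.000624), and the SlWRKY37 knockout overlapped WT (-0.18, adjusted p = 0.664). Copy 4 had 17.5, 23.55 and 15.09 in WT, 30.92, 41.94 and 40.08 in the SlLBD40 knockout and 11.08, 6.42 and 9.28 in the SlWRKY37 knockout. Its 3 groups did not overlap, and it was the 1 tested XTH gene called in opposite directions against WT, higher in the SlLBD40 knockout (0.98 ± 0.215, adjusted p = 0.00672) and 2.10-fold lower in the SlWRKY37 knockout (95% interval -1.47 to -0.52 on the log2 scale, adjusted p = 0.0184). Both comparisons use the same WT libraries. The knockouts themselves differed 4.22-fold (1.98 ± 0.215, adjusted p = 0.000382). The fall in the SlWRKY37 knockout was not called without WT replicate 1, WT replicate 2 or SlWRKY37 knockout replicate 2 (adjusted p at most 0.0645).

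XTH16, the other tested gene on chromosome 7, had 66.05, 53.99 and 37.17 in WT, 70.22, 110.59 and 97.04 in the SlLBD40 knockout and 42.03, 31.27 and 55.62 in the SlWRKY37 knockout. The lowest SlLBD40 knockout value lay just above the highest WT value. The rise of 0.82 ± 0.257 (adjusted p = 0.0301) was the smallest of the 14 and was lost without WT replicate 2 or 3 or SlLBD40 knockout replicate 2 or 3 (adjusted p at most 0.111). Against the SlWRKY37 knockout XTH16 was higher by 1.10 ± 0.257 (adjusted p = 0.0128), a call lost without replicate 2 of either knockout (adjusted p at most 0.0567).

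**Figure D3:**
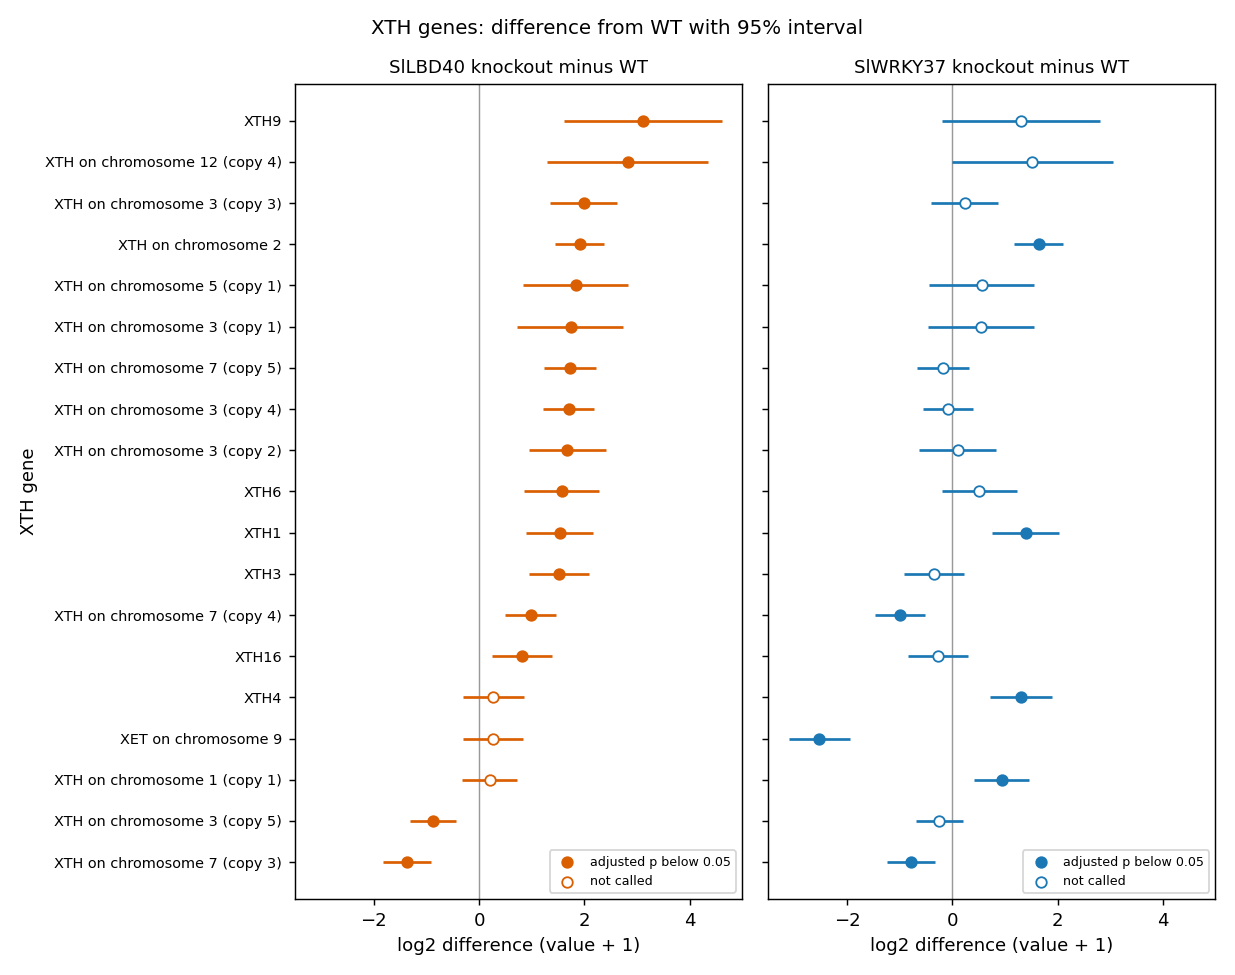
Points give the log2(value + 1) difference from WT of each of the 19 tested XTH genes, with 95% intervals from the limma fit, for the SlLBD40 knockout (left) and the SlWRKY37 knockout (right). Filled points had an adjusted p below 0.05, which holds for 16 genes on the left, 14 of them above 0, and for 7 on the right, 4 of them above 0.

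The largest log2 differences of the SlLBD40 knockout belonged to a pair of chromosome 12 genes with uneven replicates. XTH9 had 2.96, 22.58 and 3.96 in WT, 54.33, 61.41 and 87.81 in the SlLBD40 knockout and 35.82, 22.66 and 7.01 in the SlWRKY37 knockout. The chromosome 12 gene copy 4 had 1.92, 8.21 and 2.01 in WT, 22.89, 28.85 and 39.5 in the SlLBD40 knockout and 26.4, 18.42 and 2.62 in the SlWRKY37 knockout. In both genes WT replicate 2 stood above the other WT libraries and SlWRKY37 knockout replicate 3 below the other SlWRKY37 knockout libraries, and the SlLBD40 knockout did not overlap WT. XTH9 rose by 3.12 ± 0.674 (adjusted p = 0.00627) and copy 4 by 2.83 ± 0.686 (adjusted p = 0.0106) in the SlLBD40 knockout. The SlWRKY37 knockout overlapped WT in both genes, and neither was called there (1.30, 95% interval -0.20 to 2.80, and 1.52, -0.00 to 3.05). WT replicate 2 was the highest WT library in 17 of the 19 tested XTH genes.

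XTH1 and the chromosome 2 gene were higher in both knockout groups, in comparisons that share the WT libraries and so are not independent. XTH1, known in tomato as an auxin-regulated gene of elongating hypocotyls, had 7.53, 9.81 and 8.12 in WT, 25.1, 21.6 and 33.25 in the SlLBD40 knockout and 36.08, 25.96 and 14.33 in the SlWRKY37 knockout. All 6 knockout values lay above all WT values. The differences from WT were 1.53 ± 0.285 (adjusted p = 0.00315) and 1.40 ± 0.285 (adjusted p = 0.0143), the second of which was lost without WT replicate 1, WT replicate 3 or SlWRKY37 knockout replicate 2 (adjusted p at most 0.0615). The chromosome 2 gene had 2.43, 3.6 and 2.53 in WT, 14.19, 12.21 and 13.72 in the SlLBD40 knockout and 12.53, 13.49 and 7.58 in the SlWRKY37 knockout. Again no knockout library reached down to WT, and the differences were 1.91 ± 0.211 (adjusted p = 0.000344) and 1.64 ± 0.211 (adjusted p = 0.0017). Between the knockouts the chromosome 2 gene differed by 0.27 (95% interval -0.20 to 0.74) and XTH1 by 0.13 (-0.50 to 0.77), and neither was called.

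A pair of scarce genes completed the 14 that rose in the SlLBD40 knockout. The chromosome 5 gene copy 1 had 1.3, 4.45 and 0.36 in WT, 5.65, 7.68 and 12.43 in the SlLBD40 knockout and 3.74, 2.26 and 2.53 in the SlWRKY37 knockout. XTH6 had 0.07, 0.81 and 0.27 in WT, 2.58, 3.26 and 3.22 in the SlLBD40 knockout and 2.02, 0.46 and 0.62 in the SlWRKY37 knockout. It passed the low-value filter only through the SlLBD40 knockout, the group in which it is called higher. In both genes the SlLBD40 knockout lay above WT without overlap, by 1.84 ± 0.448 (adjusted p = 0.0109) and 1.57 ± 0.317 (adjusted p = 0.00459), and the SlWRKY37 knockout overlapped WT. XTH6 was also higher in the SlLBD40 than in the SlWRKY37 knockout (1.06 ± 0.317, adjusted p = 0.0341), a call lost without any single SlLBD40 knockout library or without SlWRKY37 knockout replicate 2 or 3 (adjusted p at most 0.106). That call was also lost when 0.1 instead of 1 was added to each value. With only the 2 groups compared, or with the replicate number as a block, it was lost too.

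In the SlWRKY37 knockout fewer XTH genes differed from WT, and in both directions. Of the 19 tested genes 4 rose, 3 fell and 12 were not called, which is 36.8% called against 9.38% of all tested genes (4.82% higher and 4.56% lower). The median log2 difference was 0.24 over the XTH genes and 0.02 over all tested genes. The SlWRKY37 knockout and WT libraries did not overlap in 7 of the 19 XTH genes and in 27.3% of all tested genes. Besides XTH1, the chromosome 2 gene and the chromosome 7 genes copies 3 and 4, the called genes were the XET on chromosome 9, XTH4 and the chromosome 1 gene copy 1. The count was 3 when WT replicate 1, WT replicate 3 or SlWRKY37 knockout replicate 2 was left out. Seed transcripts were uneven in this group, with storage proteins at 0.402, 0.491 and 1.11% of the library total in replicates 1, 2 and 3 and oil body proteins at 0.402, 0.341 and 0.634%, where replicate 3 came nearest to WT. The storage protein share of replicate 3 lay within the WT range of 0.935 to 1.12%. SlWRKY37 knockout replicate 3 was the lowest of its group in 12 of the 19 tested XTH genes, and the part of this in the counts was not tested.

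The XET on chromosome 9 had the largest difference of any tested XTH gene in this comparison. Its values were 27.45, 49.23 and 43.53 in WT, 42.49, 42.81 and 56.76 in the SlLBD40 knockout and 5.96, 4.08 and 8.42 in the SlWRKY37 knockout. The SlWRKY37 knockout lay far below the other 6 libraries, which overlapped one another. The mean was 6.51-fold lower than in WT (-2.53 ± 0.259, adjusted p = 0.000689) and 7.70-fold lower than in the SlLBD40 knockout (2.79 ± 0.259 for SlLBD40 minus SlWRKY37, adjusted p = 0.000169). The SlLBD40 knockout was not called against WT (0.26, 95% interval -0.31 to 0.84). Its share of the summed XTH value was 5.82 ± 1.17% in WT and 1.01 ± 0.546% in the SlWRKY37 knockout.

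XTH4 had the opposite direction. A reference gene table (RefSeq, assembly SLM_r2.1) lists a gene of the same number and chromosome as XET4, which is known as a gibberellin-regulated gene of the endosperm cap in germinating tomato seeds. XTH4 had 38.15, 66.54 and 39.51 in WT, 48.98, 50.67 and 72.15 in the SlLBD40 knockout and 127.39, 149.11 and 83.31 in the SlWRKY37 knockout. The SlWRKY37 knockout was above all other libraries, and WT and the SlLBD40 knockout overlapped. The rise over WT was 2.50-fold (1.31 ± 0.263, adjusted p = 0.0136) and was lost without WT replicate 1, WT replicate 3 or SlWRKY37 knockout replicate 2 (adjusted p at most 0.0614). The SlLBD40 knockout was lower than the SlWRKY37 knockout by 1.03 on the log2 scale (adjusted p = 0.0182), which was lost without SlLBD40 knockout replicate 1 or 2 or SlWRKY37 knockout replicate 2 (adjusted p at most 0.0762).

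The chromosome 1 gene copy 1, at 2.33, 3.16 and 2.25 in WT and 2.03, 3.84 and 3.61 in the SlLBD40 knockout, reached 6.75, 6.6 and 4.36 in the SlWRKY37 knockout. There its lowest value was above the highest of the other groups. It rose over WT by 0.94 ± 0.235 (adjusted p = 0.0343), and left out singly WT replicate 1 or 3, SlLBD40 knockout replicate 2 or SlWRKY37 knockout replicate 1 or 2 ended that call (adjusted p at most 0.116).

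Set directly against each other, the knockouts differed in 12 of the 19 tested XTH genes, 9 of them higher and 3 lower in the SlLBD40 knockout. Of all tested genes 27.0% were called, 12.9% higher and 14.1% lower, against 63.2% of the tested XTH genes. The median was 1.28 over the XTH genes and -0.08 over all tested genes. Libraries of the knockouts did not overlap in 16 of the 19 XTH genes and in 42.3% of all tested genes. The 9 higher genes were XTH3, XTH6, XTH16, the XET on chromosome 9, the chromosome 3 genes copies 2 to 4 and the chromosome 7 genes copies 4 and 5. The 3 lower genes were XTH4, the chromosome 1 gene copy 1 (-0.74, adjusted p = 0.0418) and the chromosome 3 gene copy 5 (-0.63, adjusted p = 0.0422). Leaving out SlLBD40 knockout replicate 2 or SlWRKY37 knockout replicate 2 gave 7 called genes. The calls of the chromosome 1 gene copy 1 and the chromosome 3 gene copy 5 were lost without any 1 of the WT libraries, which enter this comparison through the shared estimate of spread, and in several other fits (adjusted p at most 0.152 and 0.15).

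Genes of the wider xyloglucan and wall-loosening machinery were counted in the same fit, against the 37.2% of all tested genes called in the SlLBD40 knockout, 9.38% in the SlWRKY37 knockout and 27.0% between the knockouts. Expansins, which loosen walls without cutting chains, had 39 genes in the table and 15 tested, of which 6 rose and none fell in the SlLBD40 knockout and 5 rose and none fell in the SlWRKY37 knockout. The called share was 6 of 15 in the SlLBD40 knockout, near that of all genes, and 33.3% in the SlWRKY37 knockout, and the medians were 0.67 and 0.97. The expansin-like protein precursor 1 gene on chromosome 1 rose from 29.4 ± 1.93 to 92.9 ± 6.97 in the SlLBD40 knockout (adjusted p = 0.00043), and expansin12 on chromosome 5 from 1.85 ± 0.859 to 8.47 ± 2.87 in the SlWRKY37 knockout (adjusted p = 0.00546). Between the knockouts 2 expansins were higher and 3 lower in the SlLBD40 knockout (33.3% called).

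Endo-beta-1,4-glucanases cut glucan backbones. Of 31 genes 9 were tested, of which 4 rose and none fell in the SlLBD40 knockout, while 2 rose and 1 fell in the SlWRKY37 knockout (medians 0.49 and 0.11). The called shares were 44.4%, close to the 37.2% of all tested genes in both directions together, and 33.3%, against 9.38%. In the SlLBD40 knockout 44.4% were higher and 0.0% lower, against 18.0% and 19.2% of all tested genes. Between the knockouts 2 were higher and 1 lower in the SlLBD40 knockout (33.3% called, against 27.0% of all tested genes). The 1 that fell in the SlWRKY37 knockout is the xyloglucan endoglucanase inhibitor on chromosome 1. Its description names an inhibitor and not a glucanase, and what it inhibits was not tested. It was taken by the text pattern and stays in the counts, shares and medians of this list. It is also 1 of the 2 that were higher between the knockouts (1.68 ± 0.246, adjusted p = 0.00177). Its values were 103.48, 59.37 and 51.84 in WT, 94.71, 101.35 and 72.77 in the SlLBD40 knockout and 32.37, 27.69 and 22.08 in the SlWRKY37 knockout. It was 2.61-fold lower in the SlWRKY37 knockout than in WT (-1.30 ± 0.246, adjusted p = 0.0103), with no overlap. The endoglucanase gene copy 2 on chromosome 1 rose from 0.847 ± 0.185 in WT to 3.04 ± 0.781 in the SlLBD40 and 6.67 ± 1.77 in the SlWRKY37 knockout (adjusted p = 0.00545 and 0.00106), and passed the low-value filter through the knockout libraries. The endo-1,4-beta-glucanase precursor on chromosome 9, 1 of the 4 that rose, had means of 0.443, 3.28 and 1.37 in the same order. Cel2 on chromosome 9, the other gene higher between the knockouts, had 0.753, 2.49 and 0.763. These 2 genes passed the filter only through the SlLBD40 knockout, the group in which they are called higher.

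Glycosidases of kinds that can trim xyloglucan side chains, 15 tested of 28, had 5 higher and 3 lower genes in the SlLBD40 knockout and 2 higher and none lower in the SlWRKY37 knockout (medians 0.41 and 0.39). The text pattern takes every gene described as an alpha-xylosidase, beta-galactosidase or alpha-fucosidase. Whether each of them, including those named below, acts on xyloglucan was not tested. The called shares were 53.3% and 13.3%, against 37.2% and 9.38% of all tested genes. Between the knockouts none was higher and 2 were lower in the SlLBD40 knockout (13.3% called, against 27.0% of all tested genes). Beta-galactosidase 3 on chromosome 3 rose from 1.46 ± 0.0929 to 4.45 ± 0.652 in the SlLBD40 knockout (adjusted p = 0.00139). Beta-galactosidase 5 on chromosome 11 rose from 102 ± 11.6 to 170 ± 20.3 in the SlWRKY37 knockout (adjusted p = 0.00708).

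Genes of xyloglucan synthesis, 26 tested of 40, had 12 higher and 1 lower in the SlLBD40 knockout and 2 higher and none lower in the SlWRKY37 knockout (medians 0.47 and 0.24). The text pattern of this list also takes enzymes that make nucleotide sugars, which are not particular to xyloglucan. Both genes named below are such enzymes. The called share was 13 of 26 in the SlLBD40 knockout, against 37.2% of all tested genes. In the SlWRKY37 knockout it was 7.69%, below the 9.38% of all tested genes. By direction, 46.2% were higher and 3.85% lower in the SlLBD40 knockout, against 18.0% and 19.2% of all tested genes. Between the knockouts 8 were higher and 1 lower in the SlLBD40 knockout (34.6% called). The UDP-apiose/UDP-xylose synthase gene on chromosome 6, which makes nucleotide sugars, rose from 91.1 ± 10.1 to 245 ± 4.56 in the SlLBD40 knockout (adjusted p = 0.00011). Its counterpart on chromosome 11 rose from 65.7 ± 6.22 to 99.2 ± 5.87 in the SlWRKY37 knockout (adjusted p = 0.00743).

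Mannanases, which cut the mannan of endosperm walls, had 12 tested of 16 genes, with 6 higher and 2 lower in the SlLBD40 knockout and 4 higher and none lower in the SlWRKY37 knockout (medians 1.13 and 0.15). The called shares were 66.7% and 33.3%, against 37.2% and 9.38% of all tested genes. Between the knockouts 3 were higher and 3 lower in the SlLBD40 knockout (6 of 12 called, against 27.0% of all tested genes). Copies 2 and 3 of mannan endo-1,4-beta-mannosidase 1 on chromosome 2 stood at 0.657 ± 0.666 in WT, 13.6 ± 4.42 in the SlLBD40 knockout and 0.0867 ± 0.125 in the SlWRKY37 knockout. They have the same values in every library, so that they are not separate measurements. The pair counts as 2 of the 6 higher than WT and as 2 of the 3 higher between the knockouts. They passed the low-value filter through the SlLBD40 knockout, where they are called higher. Mannan endo-1,4-beta-mannosidase 1 on chromosome 4 rose from 23.9 ± 3.99 to 124 ± 42.4 in the SlWRKY37 knockout (adjusted p = 0.000689). Whether the XTH genes differ from these lists in how often they were called was not tested.

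**Figure D4:**
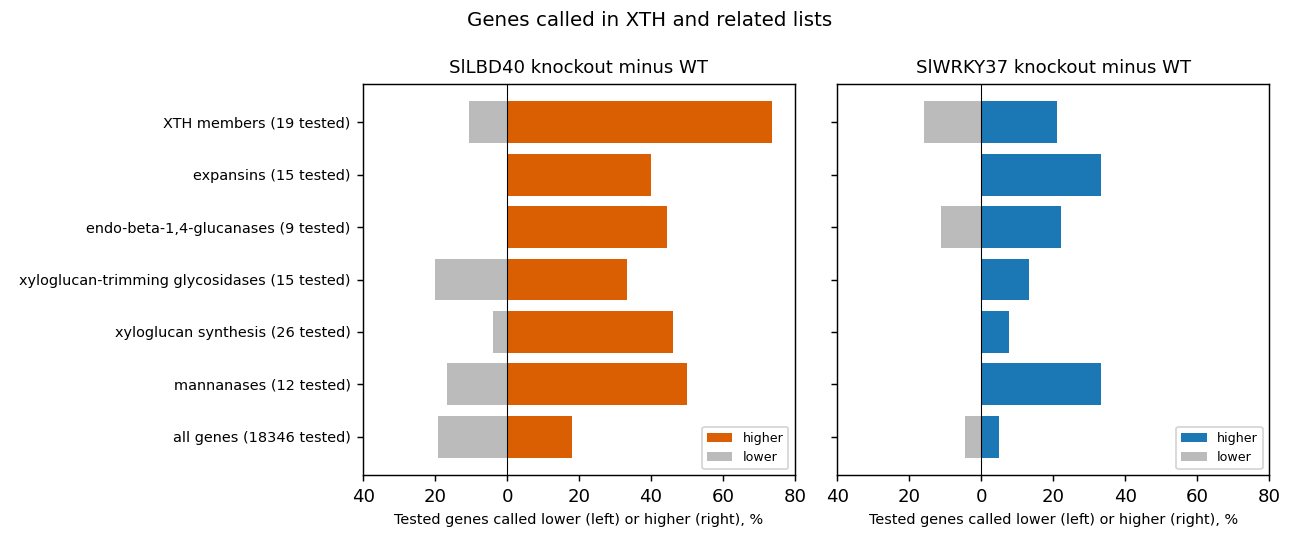
Bars give the percentage of tested genes called higher (right of 0) or lower (left of 0, grey) than WT in the XTH genes, 5 related gene lists and all tested genes, for the SlLBD40 knockout (left panel) and the SlWRKY37 knockout (right panel). In the SlLBD40 knockout 73.7% of tested XTH genes were higher and 10.5% lower, against 18.0% and 19.2% of all genes, and in the SlWRKY37 knockout 21.1% and 15.8% against 4.82% and 4.56%.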

How the data were processed

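RNA of whole tomato seeds was extracted with the RNeasy mini plus kit and made into libraries with the SMARTER mRNA-Seq kit, per the labels' protocols. TopHat2, HISAT2, StringTie and Cufflinks are named in the submitters' processing notes, without versions or roles. For the genome build, the sources used here name none. The authors deposited 1 table of expression values with 2 decimals, taken here as FPKM because the values are not whole, their totals differ between libraries and the named tools write FPKM. No header states the unit, and TPM over a larger gene set cannot be told apart from it. The column of WT replicate 1 in the authors' deposited table runs into the gene names and was read by character position. Gene IDs are shortened in the table, so genes carry their description and chromosome. Of the 8 numbered XTH genes, 7 match 1 RefSeq gene (SLM_r2.1) of the same number and chromosome, and XTH9 matches 2.

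The 18346 genes averaging 1 or more across the 9 libraries were fitted as log2(value + 1) by limma-trend (limma 3.58.1, R 4.3.3) without its robust option. Genotype was the only term, and all libraries entered 1 fit. P-values were adjusted by Benjamini-Hochberg over all tested genes and called below 0.05. Tables and plots used Python 3.11.15, pandas 2.3.3, numpy 2.4.6 and matplotlib 3.10.9. A share divides a summed value by the library total. The XTH genes and all lists were chosen with earlier results of these data known, and lists were found by text patterns in the descriptions. The glucanase pattern also takes 2 endoglucanase inhibitors. Every tested XTH gene is named. Of each list the called gene of smallest adjusted p in each comparison with WT is named, plus the inhibitor and 2 chromosome 9 glucanase genes. This is narrower than the planned 3 genes per list and comparison.

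The scaling was varied by quantile normalization, equal library totals and median-ratio scaling, and the pseudocount was lowered to 0.1. The filter was raised to a mean of 5 or dropped. Fits were repeated with the replicate number as a block, with only the 2 groups compared, and without each library in turn, and calls were also required to reach a log2 difference of 1.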

Additional observations from a re-analysis of the deposited data

How the results depend on the processing

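Of 35 called differences of single XTH genes, 21 stayed called under each of the 18 alternatives that gave them a value (12 against WT in the SlLBD40 knockout, 2 in the SlWRKY37 knockout, 7 between the knockouts), and none changed sign. Losses given above for single genes are mostly those with 1 library left out, and some of these calls were also lost under other alternatives. XTH genes called in the SlLBD40 knockout numbered 14 to 16 with 1 library left out. With a minimum mean of 5, which leaves out XTH6, 11 of 15 tested XTH genes were higher there and 2 lower. That filter kept 13055 genes, of which 2583 were higher and 3039 lower in the same comparison. In the SlWRKY37 knockout the called XTH genes numbered 3 to 7 with 1 library left out, 3 with only the 2 groups compared and 4 with a minimum log2 difference of 1. Between the knockouts they numbered 7 to 13 with 1 library left out.

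All genes called, 6826 in the SlLBD40 knockout, 1721 in the SlWRKY37 knockout and 4953 between the knockouts as reported, changed as follows. In the SlLBD40 knockout they numbered 2005 with a minimum log2 difference of 1 and 4533 to 7641 with 1 library left out. In the SlWRKY37 knockout they numbered 802 with only the 2 groups compared, 816 with the minimum difference and 783 to 2629 with 1 library left out. Between the knockouts they were 3147, 1499 and 2282 to 5192 in the same order.

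Over the 5 related lists together 39, 16 and 25 of 77 tested genes were called in the same 3 comparisons, against 37.2, 9.38 and 27.0% of all tested genes. In the SlLBD40 knockout the count was 23 with a minimum mean of 5, 22 with the minimum difference and 30 to 46 with 1 library left out. In the SlWRKY37 knockout they were 27 with quantile normalization, 25 with median-ratio scaling, 10 with no filter, 10 with only the 2 groups compared, 9 with the minimum difference and 7 to 29 with 1 library left out. Between the knockouts they were 14 with the minimum difference and 15 to 29 with 1 library left out. The summed XTH share of the SlLBD40 knockout was 0.118% without the gene of highest mean. The cause of these changes was not tested, beyond the stricter or smaller fits that some are by construction.

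Sign changes occurred only among differences that were not called, with 1 library left out. Against WT in the SlWRKY37 knockout the chromosome 3 genes ranged from -0.28 to 0.45 (copy 2), -0.05 to 0.55 (copy 3) and -0.31 to 0.11 (copy 4), and the chromosome 7 gene copy 5 from -0.33 to 0.03. XTH1 between the knockouts ranged from -0.22 to 0.42.

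Same-numbered libraries of different groups had deviations that correlated between -0.1045 and 0.0633, so the numbers were not taken as pairs. With the replicate number as a block, 15, 5 and 9 of 19 XTH genes were called in the SlLBD40 knockout, the SlWRKY37 knockout and between them. Of all 18346 tested genes the same fit called 6040, 1203 and 4117. Without read counts, the precision of genes near the filter could not be judged from depth.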

Other observations

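A pair of genes spelled with a hyphen, as xyloglucan endo-transglycosylase, fall outside the text pattern that chose the XTH genes. The B1 gene on chromosome 12 had 3.82, 6.79 and 3.9 in WT, 15.14, 18.66 and 16.6 in the SlLBD40 knockout and 19.13, 10.66 and 7.37 in the SlWRKY37 knockout. All 6 knockout values lay above WT, and limma called it higher in the SlLBD40 knockout (1.64 ± 0.299, adjusted p = 0.00285) and in the SlWRKY37 knockout (1.14 ± 0.299, adjusted p = 0.0406). These comparisons share the WT libraries. The B2 gene on chromosome 2 had means of 6.44 ± 0.292, 6.99 ± 0.289 and 8.1 ± 0.759 in the same order and was not called in any comparison.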
